A study of Mus musculus with 9 samples.

Results

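Hexose handling was followed through 8 genes in the jejunal RNA of irradiated mice. They were taken by name and Ensembl identifier from the 31685 genes of the table. All 8 passed the filter on low values, which asked for 1 FPKM or more in 3 or more mice, as did 13056 genes in all. FPKM is the number of fragments of a gene scaled to its length and to the total of its library. Comparisons between mice also depend on how the libraries are scaled to each other, as given below. All mice were wild-type C57BL/6J, and the study's methods describe its purchased C57BL/6J mice as males of 6 to 8 weeks. The control group (n = 3) is labelled untreated, the TAI group (n = 3) received a single 12 Gy X-ray dose to the abdomen (total abdominal irradiation, TAI) and, by the study's methods though not by the labels, PBS, and the TAI/IVIg group (n = 3) received the same 12 Gy and 500 mg/kg of intravenous immunoglobulin. IVIg is human IgG pooled from many donors, given to mice here, and was injected within 1 h of TAI and again every 3 days. Tissue labelled jejunal epithelium was taken on day 3, and the labels put all 9 mice in the same batch.

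Glucose and galactose leave the gut lumen through SGLT1 (Slc5a1), which couples them to sodium, and fructose enters through GLUT5 (Slc2a5). GLUT2 (Slc2a2) carries all of these sugars across the basolateral membrane toward the blood. Inside the enterocyte, ketohexokinase (Khk) phosphorylates fructose. Gluconeogenesis, known best from liver and kidney and also present in small intestine, uses phosphoenolpyruvate carboxykinase (Pck1), fructose-1,6-bisphosphatase (Fbp1), the glucose-6-phosphate carrier of the endoplasmic reticulum (Slc37a4) and glucose-6-phosphatase (G6pc), which releases free glucose. In the GENCODE vM21 annotation of GRCm38 the genes lie at chr5:33104219-33162870 (Slc5a1), chr3:28697903-28731359 (Slc2a2), chr4:150119283-150144169 (Slc2a5), chr5:30921431-30931248 (Khk), chr11:101367561-101377903 (G6pc), chr13:62864753-62888282 (Fbp1), chr2:173153048-173159273 (Pck1) and chr9:44396852-44402968 (Slc37a4). All 8 are protein-coding, and Fbp1 alone lies on the minus strand.

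The 3 genes that rose in both irradiated groups were G6pc, Pck1 and Fbp1, and their promoters are shown for that reason. All 8 genes matched the RefSeq promoter windows of GRCm38.p6, which run from 250 bases before to 50 bases after the start. Capitals mark matches on either strand to CGTCA (a half-site of the cAMP response element), TATAAA (the core element bound by TBP) or CACGTG (an E-box). The G6pc window is chr11:101367466-101367765 on the plus strand, the Pck1 window chr2:173152823-173153122 on the plus strand, and the Fbp1 window chr13:62888233-62888532 on the minus strand.
G6pc: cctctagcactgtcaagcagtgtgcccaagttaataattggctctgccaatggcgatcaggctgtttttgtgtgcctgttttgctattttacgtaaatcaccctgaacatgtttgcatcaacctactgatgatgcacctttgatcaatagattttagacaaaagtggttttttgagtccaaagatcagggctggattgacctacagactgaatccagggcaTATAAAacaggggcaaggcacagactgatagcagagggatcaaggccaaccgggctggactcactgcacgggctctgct
Pck1: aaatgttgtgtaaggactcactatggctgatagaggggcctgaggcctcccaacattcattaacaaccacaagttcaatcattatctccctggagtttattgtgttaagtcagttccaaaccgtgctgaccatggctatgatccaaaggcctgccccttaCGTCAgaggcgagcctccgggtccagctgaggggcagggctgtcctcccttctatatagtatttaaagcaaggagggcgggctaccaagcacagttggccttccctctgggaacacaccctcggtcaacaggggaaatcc
Fbp1: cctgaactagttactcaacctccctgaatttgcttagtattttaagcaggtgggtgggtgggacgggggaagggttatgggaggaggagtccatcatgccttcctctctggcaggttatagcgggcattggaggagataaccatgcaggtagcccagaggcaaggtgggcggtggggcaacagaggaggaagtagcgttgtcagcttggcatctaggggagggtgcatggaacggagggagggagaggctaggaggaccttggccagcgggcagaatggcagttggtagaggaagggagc

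The G6pc window held TATAAA beginning 29 bases before the start. The Pck1 window held CGTCA beginning 90 bases before the start. None of these motifs was in the Fbp1 window. Across 32851 RefSeq windows of 300 bases, CGTCA was present in 20.8%, TATAAA in 13.6% and CACGTG in 7.15%. Among the 8 genes, CGTCA was found in 3 (Pck1, Khk and Slc37a4), TATAAA in 2 (G6pc and Slc37a4) and CACGTG in 2 (Khk and Slc5a1). Slc37a4 has several windows, starting at chr9:44396696, 44396849 and 44398104, and each other gene has a single window. Its TATAAA lay only in the window starting at 44398104. These counts are per gene, so they are not on the same footing as the shares per window. In Khk the matches to the cAMP half-site and the E-box overlap. A match is a description of the sequence and was not tied to any measured binding.

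The libraries held 16284386 to 18244535 recovered reads, with overlapping ranges in the groups. Other properties of the tissue also differed between the groups, and position along the gut is given first. Genes of the distal small intestine, which were chosen after their values were seen, were high in the control mice although the tissue is labelled jejunal. The ileal bile acid binding protein Fabp6 lay at 7414.5, 8176.9 and 7326.3 FPKM in the controls, at 1371.8, 1874.3 and 3529.5 in the TAI mice and at 1350.8, 208.1 and 229.0 in the TAI/IVIg mice. Controls were thus far above every irradiated mouse, and TAI/IVIg mice 2 and 3 were the lowest. The ileal bile acid carrier Slc10a2 lay at 64.9 to 137.6 FPKM in controls, 48.1 to 75.5 after TAI and 11.0 to 29.5 in TAI/IVIg. Lactase (Lct), an enzyme of proximal villi, lay at 4.82 to 16.6 FPKM in controls, 106.2 to 210.2 after TAI and 216.0 to 343.2 in TAI/IVIg. Of the 4 distal genes (Fabp6, Slc10a2, Slc51a and Slc51b), 1 fell in TAI against control and 4 fell in TAI/IVIg against control. Among all genes tested, 26.1% and 37.4% were called lower in these comparisons. Gata4, a transcription factor of the proximal intestine, was at 16.9 to 22.6 FPKM in controls, 11.1 to 16.7 after TAI and 16.8 to 22.2 in TAI/IVIg, and passed the test in neither comparison. The part of these regional differences in the results below was not tested. In bulk tissue, fewer cells of a type and less RNA per cell cannot be told apart.

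After TAI alone, 3 of the 8 genes rose and none fell, all 3 of them genes of gluconeogenesis. G6pc was 6.41 times the control mean, Pck1 3.53 times and Fbp1 2.71 times. The 3 sugar transporters, Khk and Slc37a4 did not pass the test. Against this, 8.81% of all genes tested were called higher in TAI against control and 26.1% were called lower. The median log2 fold change was 0.62 over the 8 genes and -0.23 over all genes tested, and the former was 0.28 without control mouse 3. Those fold changes are on the log2(FPKM + 1) scale, which understates the change of low genes.

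**Figure D1:**
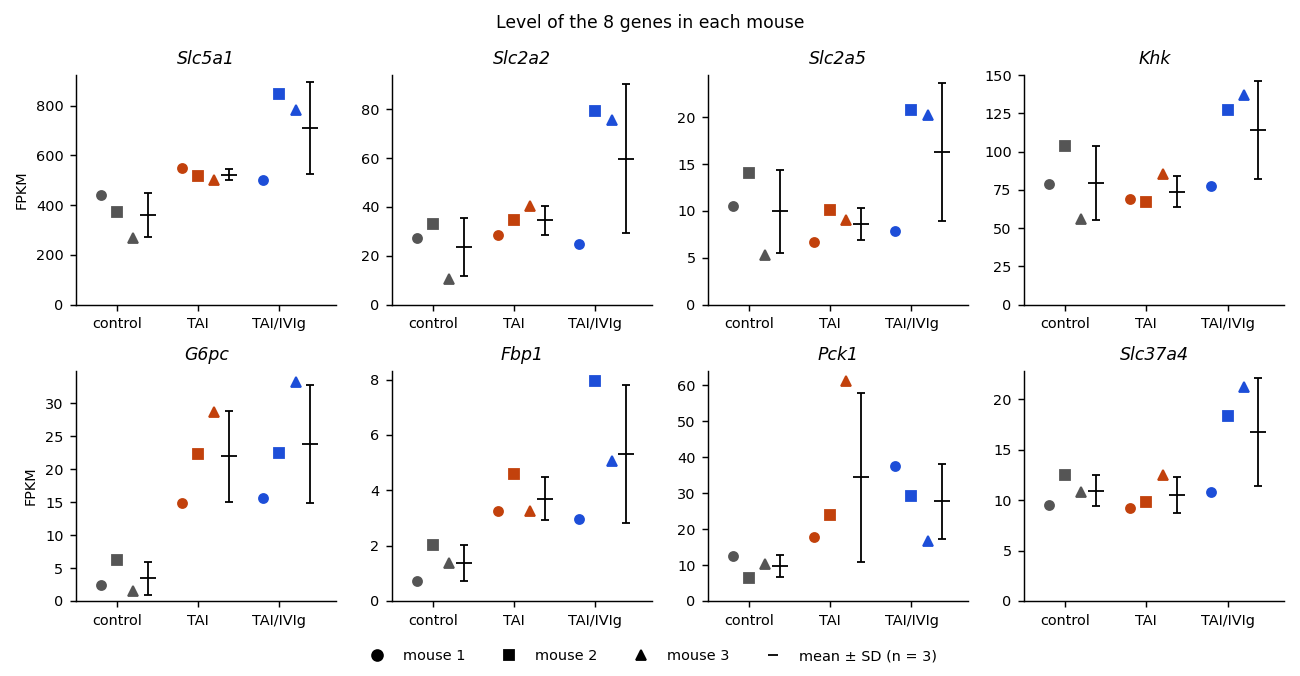
FPKM (vertical axes, each starting at 0) of the 8 genes in the 3 mice of each group, with a marker per mouse and the mean ± SD beside them. G6pc, Fbp1 and Pck1 are higher in all 6 irradiated mice than in any control, whereas Slc2a5, Khk and Slc37a4 stand out only in TAI/IVIg mice 2 and 3.

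G6pc had the largest change of the 8 genes in both comparisons with control. Its level was 2.41, 6.28 and 1.56 FPKM in the 3 controls, 14.8, 22.3 and 28.7 after TAI, and 15.6, 22.5 and 33.3 in TAI/IVIg. Every irradiated mouse lay above every control. The control mean was 3.41 ± 2.52 FPKM (SD, n = 3), against 21.9 ± 6.95 after TAI and 23.8 ± 8.93 in TAI/IVIg. On the log2 scale the rise was 2.47 ± 0.42 (SE; 95% confidence interval 1.53 to 3.41; adjusted p = 0.00337) after TAI and 2.57 ± 0.42 (1.63 to 3.51; adjusted p = 0.00188) in TAI/IVIg. Leaving out any 1 mouse kept both calls. The controls rest on 65 to 268 reads and the irradiated mice on 611 to 1349.

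Pck1, which makes phosphoenolpyruvate from oxaloacetate, was at 12.5, 6.45 and 10.2 FPKM in controls. It was at 17.9, 24.0 and 61.3 after TAI and at 37.5, 29.1 and 16.8 in TAI/IVIg. All irradiated mice were above all controls, but TAI mouse 3 stood far above the rest. The rise was 1.57 ± 0.45 (SE; 95% interval 0.54 to 2.6; adjusted p = 0.0275) after TAI and 1.4 ± 0.45 (0.37 to 2.43; adjusted p = 0.0328) in TAI/IVIg. Pck1 is also an abundant gene of fat cells, and TAI mouse 3 carried the highest level of fat cell genes, a list chosen after its values were seen. Adiponectin (Adipoq) was at 58.8 FPKM in that mouse and at 0.82 to 11.6 in the other 8, and all 5 fat cell genes summed to 541 FPKM there, against 29.8 to 90.3 in controls. In TAI/IVIg the sums were 9.65 to 95.5 FPKM, which overlaps the controls, and Pck1 was above every control in that group. TAI/IVIg mouse 3 had the lowest sum, 9.65 FPKM, and the lowest Pck1 of its group. Its Pck1 was 16.8 FPKM, and the highest control was 12.5. Without TAI mouse 3 the rise of Pck1 after TAI was 1.06 (adjusted p = 0.0624). The TAI call was also lost without control mouse 2 (adjusted p = 0.0914) or control mouse 3 (0.0655), and the TAI/IVIg call without control mouse 2 (0.101), control mouse 3 (0.0709), TAI/IVIg mouse 1 (0.0993) or TAI/IVIg mouse 2 (0.0728). The part of fat tissue in the result was not tested. None of the 5 fat cell genes passed the test in any comparison. Their median log2 fold change was 1.4 in TAI against control and -0.11 in TAI/IVIg against control.

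Fbp1, the bisphosphatase that turns fructose-1,6-bisphosphate into fructose-6-phosphate, was low throughout. Controls had 0.71, 2.03 and 1.36 FPKM (21 to 61 reads), TAI mice 3.26, 4.58 and 3.25, and TAI/IVIg mice 2.97, 7.95 and 5.04. No control reached the lowest irradiated mouse. The rise was 1.02 ± 0.31 (SE; 95% interval 0.32 to 1.72; adjusted p = 0.0328) after TAI and 1.38 ± 0.31 (0.68 to 2.08; adjusted p = 0.00713) in TAI/IVIg. The TAI call was lost without control mouse 1 (adjusted p = 0.0907), control mouse 3 (0.0772) or TAI mouse 1, 2 or 3 (0.0751, 0.0983 and 0.0609). The TAI/IVIg call was kept whichever mouse was left out. Fbp1 is not the main bisphosphatase transcript of this tissue: Fbp2, its muscle-type relative, lay at 80.8 to 103.3 FPKM in controls, 92.8 to 114.2 after TAI and 94.3 to 169.6 in TAI/IVIg, and passed the test in no comparison. Fbp2 is named because its level was seen.

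Slc37a4, the carrier that brings glucose-6-phosphate to G6pc, did not follow G6pc after TAI. It was at 9.47, 12.5 and 10.8 FPKM in controls, 9.19, 9.82 and 12.5 after TAI, and 10.8, 18.3 and 21.2 in TAI/IVIg. The control and TAI ranges overlapped. The difference after TAI was -0.06 (95% interval -0.59 to 0.48; adjusted p = 0.868), and in TAI/IVIg against control it was 0.53 (0 to 1.07; adjusted p = 0.0931). Without TAI/IVIg mouse 1 the latter was 0.8 (adjusted p = 0.01).

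Among the transporters, SGLT1 (Slc5a1) was by far the most abundant of the 8 transcripts. Its level was 441.5, 370.5 and 267.3 FPKM in controls, 549.2, 517.0 and 502.8 after TAI, and 501.5, 846.5 and 783.6 in TAI/IVIg. All irradiated mice were above all controls. The difference after TAI was 0.57 (95% interval 0.01 to 1.12) and missed the threshold (adjusted p = 0.101), though limma voom on recovered reads called it (0.86; adjusted p = 0.0457), while in TAI/IVIg against control Slc5a1 rose by 0.97 ± 0.24 (SE; 0.42 to 1.53; adjusted p = 0.0116), 1.97 times the control mean. That call was kept whichever mouse was left out.

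GLUT2 (Slc2a2) and GLUT5 (Slc2a5) passed the test in no comparison. Slc2a2 was at 27.2, 33.0 and 10.3 FPKM in controls, 28.4, 34.7 and 40.5 after TAI, and 24.7, 79.2 and 75.5 in TAI/IVIg. Slc2a5 was at 10.5, 14.1 and 5.28 FPKM in controls, 6.72, 10.1 and 9.04 after TAI, and 7.81, 20.8 and 20.3 in TAI/IVIg. For both genes TAI/IVIg mouse 1 lay within or below the other groups, and TAI/IVIg mice 2 and 3 lay above every other mouse. The difference in TAI/IVIg against control was 1.29 (95% interval 0.14 to 2.43; adjusted p = 0.0635) for Slc2a2 and 0.64 (-0.28 to 1.56; adjusted p = 0.219) for Slc2a5. After TAI alone it was 0.67 (-0.47 to 1.81; adjusted p = 0.325) and -0.11 (-1.03 to 0.81; adjusted p = 0.845).

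Ketohexokinase (Khk), the entry enzyme of fructolysis, was at 79.0, 103.9 and 55.8 FPKM in controls, 68.7, 67.2 and 85.3 after TAI, and 77.6, 127.0 and 137.2 in TAI/IVIg. The 3 TAI values fell inside the control range. Its difference was -0.07 (95% interval -0.69 to 0.54; adjusted p = 0.848) after TAI and 0.51 (-0.1 to 1.13; adjusted p = 0.145) in TAI/IVIg. The direction of Khk, Slc2a5 and Slc37a4 after TAI depended on the scaling of the libraries, being below 0 with the FPKM values as deposited and above 0 with library medians set equal.

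In TAI/IVIg against control 4 of the 8 genes rose (G6pc, Fbp1, Pck1 and Slc5a1) and none fell, where 9.06% of all genes tested were called higher and 37.4% lower. The median log2 fold change was 1.13 over the 8 genes and -0.39 over all genes. Both comparisons use the same 3 control mice. When TAI/IVIg mouse 1 was left out, 7 of the 8 genes were called higher, all but Pck1. Without that mouse 8.83% of all genes tested were called higher. With library medians set equal, 7 were called higher, all but Slc2a5, and 22.1% of all genes. That scaling moved the median of all genes tested to 0.05 in TAI against control and 0.1 in TAI/IVIg against control. The share of all calls that were higher went from 25.2% to 54.2% in the first comparison and from 19.5% to 60.3% in the second.

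**Figure D2:**
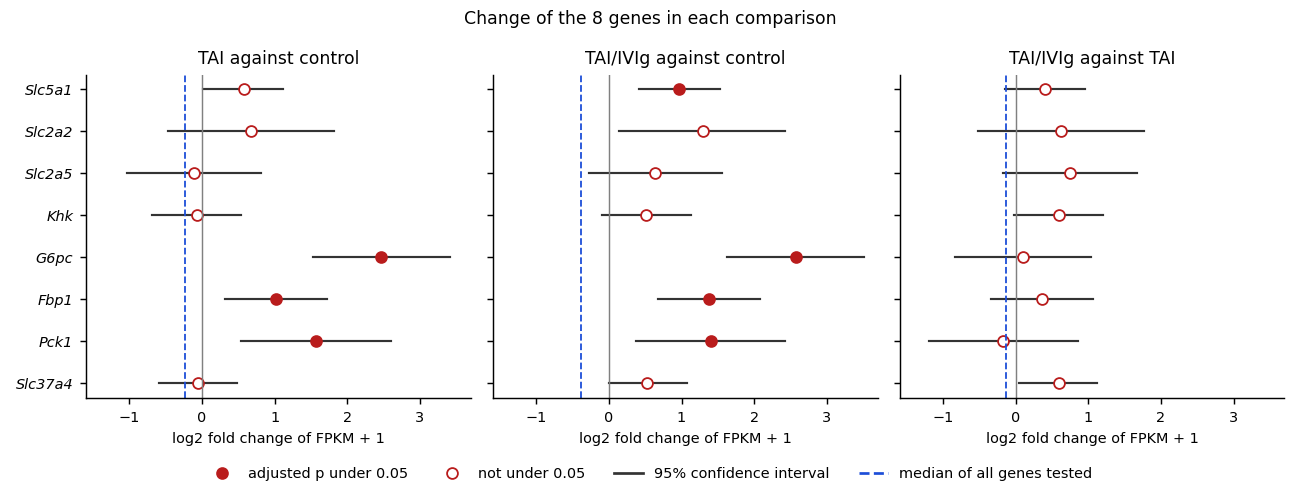
Log2 fold change of FPKM + 1 (horizontal axis) of the 8 genes in the 3 comparisons, with 95% confidence intervals from limma. Filled points passed an adjusted p of 0.05: 3 genes in TAI against control, 4 in TAI/IVIg against control and 0 in TAI/IVIg against TAI. The dashed line is the median of all genes tested, at -0.23, -0.39 and -0.13.

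No difference between TAI/IVIg and TAI passed the test. By limma, 0 of the 8 genes were called in TAI/IVIg against TAI, as were 0 of 13056 genes (0%), and 0 by limma voom on recovered reads. With the replicate block 3 genes were called, and 4 without a filter, all lower and none of them among the 8. At an unadjusted p under 0.05 there were 1680 genes (12.9%), with 1 of the 8 among them (Slc37a4, 0.59, 95% interval 0.05 to 1.12, adjusted p = 0.367). On average 7 of the 8 genes were higher in TAI/IVIg than in TAI, against 30.4% of all genes, with a median of 0.5 against -0.13. The values for all genes hold for the FPKM as deposited. Their median was 0.08 with equal library medians, 0.1 relative to pan-epithelial markers and 0 by voom. The median of the 8 genes was 0.5 to 0.73 over the alternatives that kept all mice. The intervals leave room for sizeable differences: 0.75 (-0.17 to 1.67) for Slc2a5, 0.62 (-0.52 to 1.76) for Slc2a2, 0.59 (-0.03 to 1.2) for Khk and 0.41 (-0.15 to 0.96) for Slc5a1. The gluconeogenic enzymes had smaller differences, 0.1 (-0.84 to 1.04) for G6pc, 0.36 (-0.34 to 1.06) for Fbp1 and -0.17 (-1.2 to 0.86) for Pck1.

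TAI/IVIg mouse 1 set much of that spread. In Slc5a1, Slc2a2 and Fbp1 it lay below all 3 TAI mice, while TAI/IVIg mice 2 and 3 both lay above all 3 TAI mice in 6 of the 8 genes, all but G6pc and Pck1. The liver-type fatty acid binding protein Fabp1, a gene of proximal enterocytes, divided the group in the same way, at 1477.0, 4869.8 and 4181.7 FPKM in TAI/IVIg mice 1, 2 and 3, against 977.5 to 1535.9 after TAI. Fabp6 divided it in the opposite direction, as given above.

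**Figure D3:**
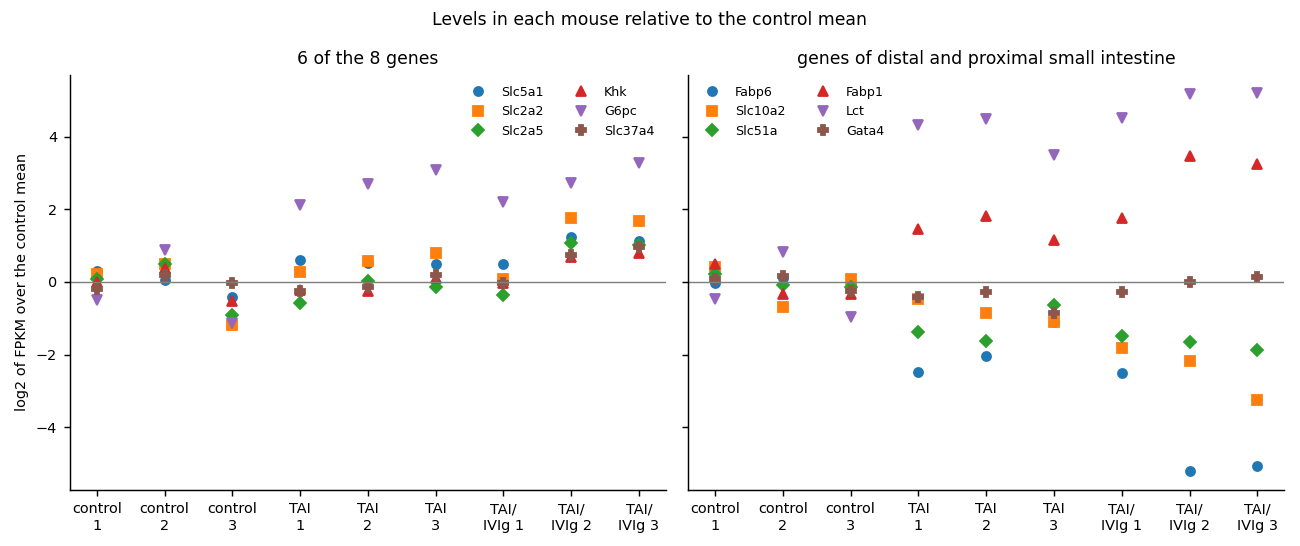
Log2 of FPKM over the mean of the 3 controls (vertical axis) in each of the 9 mice, for 6 of the 8 genes and for 6 genes of distal or proximal small intestine. TAI/IVIg mice 2 and 3 are high for Slc2a2, Slc2a5, Khk and Slc37a4 and lowest for Fabp6, and all 6 irradiated mice are high for G6pc and Lct.

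Sugar transport itself was not measured. Transcripts of the transporters were compared within each mouse as a log2 ratio, again on FPKM + 1. For Slc2a5 to Slc5a1 it was -5.1 ± 0.42 (SD, n = 3) in controls, -5.78 ± 0.33 after TAI and -5.44 ± 0.34 in TAI/IVIg. Every TAI mouse (-6.15 to -5.54) was below every control (-5.42 to -4.62), a difference of -0.68 with a two-sided exact permutation p = 0.1, the smallest that 3 mice against 3 allow. Against TAI, the TAI/IVIg ratio differed by 0.34 (exact permutation p = 0.3). For Slc2a2 to Slc5a1 the differences were 0.1 in TAI against control (exact permutation p = 0.9) and 0.21 in TAI/IVIg against TAI (exact permutation p = 0.6). Adjusted over these 4 comparisons by Benjamini-Hochberg, the exact permutation p-values were 0.4, 0.6, 0.9 and 0.8, and 0.05 could not be reached in this design.

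By level, Slc5a1 led the 8 genes in every group, followed by Khk. In controls the order of the means was then Slc2a2 (23.5 ± 11.8 FPKM), Slc37a4 (10.9 ± 1.53), Slc2a5 (9.95 ± 4.43), Pck1 (9.73 ± 3.06), G6pc (3.41 ± 2.52) and Fbp1 (1.37 ± 0.659). Slc37a4, Slc2a5 and Pck1 could not be ranked beyond their spread. After TAI, Slc2a2 (34.5 ± 6.08), Pck1 (34.4 ± 23.5) and G6pc (21.9 ± 6.95) followed Khk (67.2 to 85.3), with overlapping values, and Slc37a4 (10.5 ± 1.75), Slc2a5 (8.64 ± 1.74) and Fbp1 (3.7 ± 0.766) came last. G6pc thus moved from below Slc37a4 in all 3 controls to above it in all 6 irradiated mice.

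Across the 9 mice the 8 genes did not vary as one. As descriptions over mice that also differ by group, Pearson's r of log2(FPKM + 1) was 0.95 for Slc2a5 with Khk, 0.92 for Slc5a1 with Slc2a2 and 0.86 for G6pc with Fbp1, but -0.02 for Pck1 with Slc2a5. The genes with the most similar pattern, 2 per member among the genes tested, were Dab1 (0.974) and Sox6 (0.968) for Slc5a1, Nat8 and Odf3b (both 0.962) for Slc2a2, and Mdh1 (0.958) and Slc25a45 (0.949) for Slc2a5. Khk was most like Nat8 (0.967) and Tymp (0.951), and Slc37a4 most like Rragd (0.97) and Alad (0.969). For the gluconeogenic enzymes they were Ltc4s (0.976) and Rhbdl2 (0.973) for G6pc, Retsat (0.973) and Gpr155 (0.966) for Fbp1, and Gm13567 (0.96) and Osbpl1a (0.922) for Pck1.

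The other genes of gluconeogenesis did not rise as a group. Of 14 tested, 2 rose and 6 fell in TAI against control (14.3% and 42.9%), with a median of -0.26. Of all genes tested, 8.81% rose and 26.1% fell, with a median of -0.23. Pyruvate carboxylase (Pcx), which feeds the pathway with oxaloacetate, rose from 4.63 to 6.36 FPKM in controls to 11.0 to 15.2 after TAI (1.03; adjusted p = 0.0026). G6pc3, the widely expressed phosphatase, fell from 6.05 to 8.56 FPKM to 2.91 to 4.09 (-0.9; adjusted p = 0.00593). G6pc and G6pc3 thus moved in opposite directions. The mitochondrial aminotransferase Got2 fell by 1.14 (adjusted p = 0.00767) and glutamate dehydrogenase Glud1 by 1.6 (adjusted p = 0.00944), Glud1 from 114.5 to 186.7 FPKM in controls to 41.8 to 46.5 after TAI. Of the same 14, 2 rose and 5 fell in TAI/IVIg against control (14.3% and 35.7%, against 9.06% and 37.4% of all genes tested). Once library medians were equalised, 3 of the 14 rose and 4 fell after TAI, and 5 rose and 3 fell in TAI/IVIg. With that scaling 16.5% of all genes tested were higher and 14% lower after TAI, and 22.1% and 14.5% in TAI/IVIg.

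Glycolysis runs opposite to gluconeogenesis at its irreversible steps only and shares the reversible ones, such as those of Aldoa and Pgam1. The list of glycolysis enzymes does not separate the 2 kinds of step. Of 25 tested, 2 rose and 12 fell after TAI (8.0% and 48.0%; median -0.41), and 2 rose and 10 fell in TAI/IVIg against control (8.0% and 40.0%). All genes tested also fell more often than they rose, with 8.81% higher and 26.1% lower after TAI and 9.06% and 37.4% in TAI/IVIg. Aldolase A (Aldoa) fell from 226.7 to 229.5 FPKM in controls to 71.2 to 82.4 after TAI (-1.59; adjusted p = 0.000315), and phosphoglycerate mutase Pgam1 fell by 1.52 (adjusted p = 0.00317). The 2 that rose make or remove fructose-2,6-bisphosphate, a signal that stimulates phosphofructokinase and inhibits fructose-1,6-bisphosphatase. Pfkfb3 rose from 3.68 to 6.86 FPKM to 36.9 to 58.9 (3.01; adjusted p = 0.000362) and Pfkfb4 from 12.3 to 21.0 FPKM to 46.8 to 51.9 (1.62; adjusted p = 0.001). Hexokinase 2 (Hk2) ranged from 15.1 to 46.7 FPKM after TAI and from 15.6 to 32.5 in controls (0.26; adjusted p = 0.691). With library medians set equal 4 of the 25 rose and 4 fell after TAI, and in TAI/IVIg 5 rose and 2 fell. The balance of this list thus depends on the scaling, as does that of all genes tested.

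**Figure D4:**
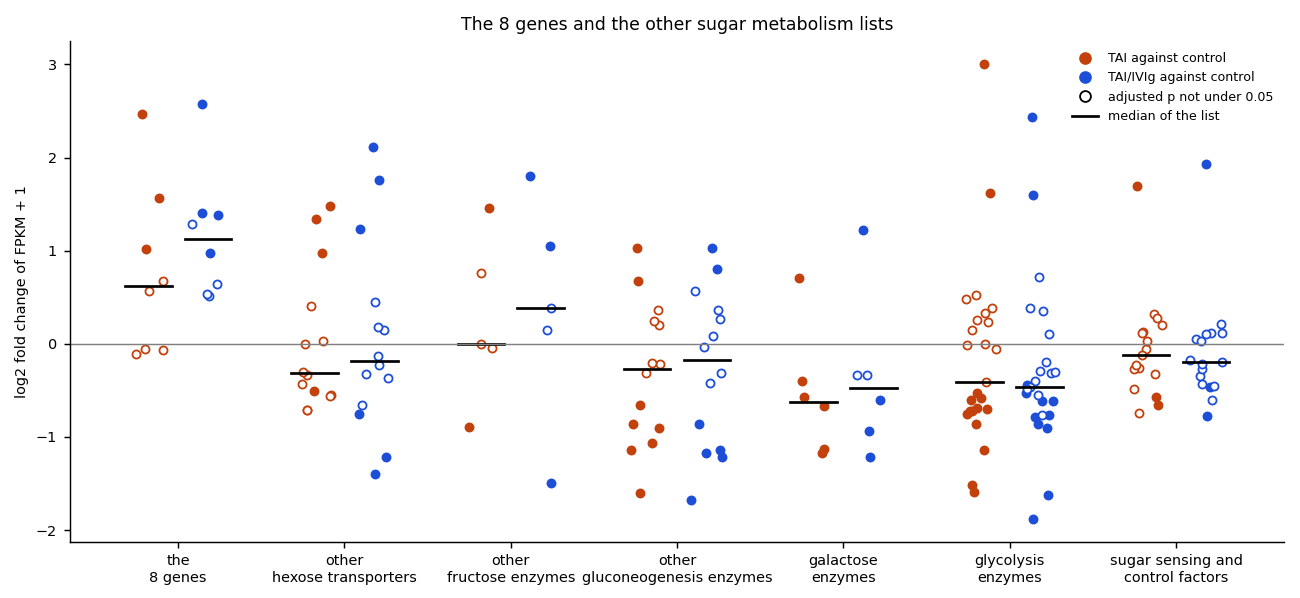
Log2 fold change of FPKM + 1 (vertical axis) of each tested gene of the 8 and of 6 lists of sugar metabolism, in TAI against control and TAI/IVIg against control. Filled points passed an adjusted p of 0.05 and bars are medians, which are above 0 for the 8 genes (0.62 and 1.13) and below 0 for glycolysis enzymes (-0.41 and -0.46).

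The remaining transporters were mixed. Of 14 tested, 3 rose and 1 fell in TAI against control (21.4% and 7.14%, against 8.81% and 26.1% of all genes tested; median -0.32). In TAI/IVIg against control 3 rose and 3 fell (21.4% and 21.4%, against 9.06% and 37.4%; median -0.18). Once library medians were equalised, 3 rose and 0 fell after TAI, and 4 rose and 2 fell in TAI/IVIg, with its median at 0.31. Shares of all genes under this scaling are given with the gluconeogenesis list. The 3 that rose are relatives of SGLT1: Slc5a11, a carrier of myo-inositol, from 6.7 to 15.3 FPKM in controls to 24.2 to 26.2 after TAI (1.34; adjusted p = 0.0091), Slc5a9, a carrier of mannose and other sugars, by 0.98 (adjusted p = 0.0099), and Slc5a4b by 1.48 (adjusted p = 0.0312). Slc2a10, at 1.44 to 1.66 FPKM in controls and 0.736 to 0.798 after TAI, fell by 0.51 (adjusted p = 0.0147). That call was lost with equal library medians (adjusted p = 0.267) and relative to pan-epithelial markers (0.165). It was kept with quantile normalization (adjusted p = 0.045) and by voom (0.048). GLUT1 (Slc2a1), the transporter of many proliferating cells, was at 6.63 to 10.2 FPKM in controls and 3.83 to 7.74 after TAI (-0.43; adjusted p = 0.211), and fell to 1.75 to 2.92 in TAI/IVIg (-1.4; adjusted p = 0.00265). GLUT7 (Slc2a7), another transporter of the small intestine, was at 3.54, 16.5 and 12.6 FPKM in TAI/IVIg mice 1, 2 and 3, against 4.0 to 5.58 after TAI, and passed the test in no comparison.

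Among the other fructose enzymes, Sord, which makes fructose from sorbitol, rose from 27.1 to 61.0 FPKM in controls to 105.0 to 109.1 after TAI (1.46; adjusted p = 0.00933). Akr1b3, which makes sorbitol from glucose, fell by 0.89 (adjusted p = 0.0201), but relative to pan-epithelial markers 0 of the 5 enzymes were called lower after TAI. Glycerate kinase (Glyctk) was 0.76 higher (adjusted p = 0.0564). Triokinase (Tkfc), which acts after Khk, was at 23.6 to 43.2 FPKM in controls and 23.7 to 36.8 after TAI (adjusted p = 0.998). Of the 5, 2 rose and 1 fell in TAI/IVIg against control.

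All 6 galactose enzymes passed the test after TAI, 5 of them lower and 1 higher (median -0.62). These are 83.3% lower and 16.7% higher, against 26.1% and 8.81% of all genes tested. Phosphoglucomutase Pgm1 fell by 1.13 (adjusted p = 0.000868), Galk1 by 1.17 (adjusted p = 0.00779) and Galt by 0.57 (adjusted p = 0.0148). The mutarotase Galm, which interconverts the anomers of galactose and glucose, rose by 0.71 (adjusted p = 0.0312); it lies outside the rule for named genes and is given because it was the exception. Against control, 1 rose and 3 fell in TAI/IVIg. With library medians set equal 1 rose and 2 fell after TAI.

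Of 17 factors of sugar sensing and control, 1 rose and 2 fell in each comparison with control (5.88% and 11.8%). Of all genes tested, 8.81% rose and 26.1% fell after TAI, and 9.06% and 37.4% in TAI/IVIg. Creb3l3 (CREB-H), a membrane-bound factor of liver and gut that acts on lipid and gluconeogenic genes, rose from 68.2 to 107.8 FPKM in controls to 260.3 to 276.7 after TAI (1.7; adjusted p = 0.000777) and 271.5 to 364.1 in TAI/IVIg (1.93; adjusted p = 0.000304). Mlx, the partner of ChREBP, fell by 0.57 (adjusted p = 0.0127) and the intestinal factor Cdx2 by 0.66 (adjusted p = 0.0236) after TAI. ChREBP itself (Mlxipl) was at 7.58 to 22.3 FPKM in controls and 9.29 to 14.9 after TAI (-0.06; adjusted p = 0.907). Hnf4a, a nuclear receptor of gut and liver epithelium, was at 0.13 (adjusted p = 0.548) after TAI. Txnip, a glucose-induced gene, was at -0.32 (adjusted p = 0.196) after TAI and fell by 0.77 in TAI/IVIg (adjusted p = 0.00825). Once library medians were equalised, the falls of Mlx and Cdx2 after TAI and of Txnip in TAI/IVIg (-0.28; adjusted p = 0.326) were not called, and the difference of Mlx in TAI/IVIg against control went from -0.46 to 0.03.

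Markers of absorptive enterocytes, the cells that express these transporters, also differed between the groups. Of 10 enterocyte markers 7 rose and none fell in TAI against control (median 1.29), and 8 rose in TAI/IVIg against control. Beside this and the marker counts below, 8.81% of all genes tested were higher and 26.1% lower after TAI. In TAI/IVIg the shares were 9.06% and 37.4%. Lct and Fabp1, named above as proximal genes, are on this list. The summed level was 14599 to 23270 FPKM in controls, 32882 to 53185 after TAI and 47001 to 52918 in TAI/IVIg. Its largest parts were Fabp2 and Apoa1, with means of 9030 and 4106 FPKM in controls and 19955 and 12661 after TAI. Sucrase-isomaltase (Sis), a disaccharidase on the same list, was at 257.3 to 510.2 FPKM in controls, 128.6 to 196.1 after TAI and 103.5 to 335.2 in TAI/IVIg. Its difference from control was -1.12 after TAI (adjusted p = 0.0631), where the groups did not overlap, and -0.95 in TAI/IVIg (adjusted p = 0.0866). Of 6 goblet markers 3 rose and 1 fell after TAI, and 2 fell in TAI/IVIg against control. Paneth markers summed to 785 to 3927 FPKM in controls, 1426 to 3965 after TAI and 116 to 1064 in TAI/IVIg, where 1 of 5 fell. Pan-epithelial markers had a summed level of 4905 to 5687, 4669 to 5039 and 4471 to 5475 FPKM in the same order, with 2 of 8 higher and 2 lower after TAI. The tissue also held muscle RNA although labelled epithelial: smooth muscle markers summed to 482 to 621 FPKM in controls, 536 to 765 after TAI and 113 to 554 in TAI/IVIg. Fibroblast markers were lower in TAI/IVIg (4 of 6 fell against control) and had summed levels of 65.8 to 92.1, 73.7 to 94.2 and 21.1 to 47.9 FPKM. Relative to pan-epithelial markers, 3 of the 8 hexose genes were higher after TAI and 7 in TAI/IVIg, where 8.39% and 12.9% of all genes were called higher. Markers of organs that make glucose were measured as well. Kidney tubule markers summed to at most 0.137 FPKM in any mouse. Of the liver markers, 3 of 6 were tested and 1 rose after TAI, Serpina3k, from 0.385 to 0.534 FPKM in controls to 3.2 to 6.92 (1.94; adjusted p = 0.0125). Albumin (Alb) was at 5.92 to 9.3 FPKM over all mice and fibrinogen (Fgb) at most at 0.444. The liver list summed to 12.1 to 17.5 FPKM in controls, 20.4 to 106 after TAI and 9.6 to 22.0 in TAI/IVIg, its highest value being set by Cyp2e1 (95.5 FPKM in TAI mouse 3). The part of liver RNA in the results was not tested. Sis and the liver genes are named because their values were seen. The exocrine pancreas markers summed to at most 2.88 FPKM.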

How the data were processed

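RNA of jejunal tissue was sequenced from 9 mice, 3 each in the control, TAI and TAI/IVIg groups, which were assigned from the sample labels. The authors deposited FPKM values per gene and mouse, without pooling. The submitters' processing notes name FastQC, Trimmomatic, STAR, featureCounts and DESeq2, with builds mm10 and GRCm38, but give no versions or settings. Whole reads were recovered from the FPKM steps for all 31685 genes (100% of them, within 0.001 of a read ratio), which gave 16284386 to 18244535 reads per library. The gene length this implied equalled the GENCODE vM21 exon length for 98.3% of the genes found there, all 8 hexose genes included. No exon of the 8 overlaps another annotated gene. The strand setting of the counting is not given in the sources used here.

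Expression was tested as log2(FPKM + 1) with limma 3.58.1 in R 4.3.3, with all 9 mice, a term for each group and a trended empirical Bayes step. Genes under 1 FPKM in more than 6 mice were left out, and p-values were adjusted by Benjamini-Hochberg within each comparison over the 13056 genes kept, with a threshold of 0.05. Ratios within mice used two-sided exact permutation tests (scipy 1.17.1). The members and gene lists were chosen with earlier results of these data known, and the lists of distal, proximal and fat cell genes after their values were seen. Named genes were all 8 members, the 4 genes of smallest p after TAI in each of 6 lists, 10 further genes by name and the 2 most similar genes per member; some of these are not reported here. The study describes the 3 samples of each group as 3 mice. After group means were subtracted, control and TAI mice of equal number had correlations of 0.271, 0.241 and 0.308 over genes. Those of unequal number had at most 0.146, but control mouse 3 and TAI/IVIg mouse 2 reached 0.408. These values cannot settle whether the numbers pair mice. The main fit and the permutation tests used no pairing, and a replicate block was an alternative. The steps were tested on simulated data.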

Additional observations from a re-analysis of the deposited data

How the results depend on the processing

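Alternatives changed the pseudocount (0.1), the filter (none, or a mean of 5 FPKM, at which Fbp1 is not tested) and the scaling (equal library medians, quantiles, pan-epithelial markers). Others fitted only the 6 mice compared, dropped the trend, added a replicate block, used limma voom on recovered reads, or left out each mouse. Of 453 member values so obtained, 396 kept their direction and their side of the threshold. No alternative called a member lower against control, or any member in TAI/IVIg against TAI. The counts of members higher were added after seeing the data. In TAI against control the count was 3. It was 4 by voom, which added Slc5a1, where 15.2% of all genes tested were called higher against 8.81% in the main fit. Without a filter it was 1 (3.39% of all genes), as Fbp1 and Pck1 were lost (adjusted p = 0.0791 and 0.0697). Leaving out a mouse gave 1 to 3 (5.4% to 10.1% of all genes), with 1 without control mouse 3 or TAI mouse 3. In TAI/IVIg against control the count was 4. It was 7 with equal library medians, 7 relative to pan-epithelial markers and 7 by voom. The shares of all genes called higher were then 22.1%, 12.9% and 18.5%, against 9.06% in the main fit. When a mouse was left out the count was 3 to 7 (7.06% to 9.03% of all genes). The median over the 8 genes in TAI against control was 0.28 to 0.79 when a mouse was left out. In TAI/IVIg against control it was 1.13, and 1.62 both with equal medians and by voom. The cause was not tested.

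With the replicate block the counts stayed 3 and 4 (9.12% and 9.14% of all genes) and the medians 0.62 and 1.13. In TAI/IVIg against control Pck1 lost its call under that block (adjusted p = 0.0572) and Slc37a4 gained one (0.0423). TAI/IVIg mice had correlations of -0.296 to 0.201 with mice of equal number in the other groups.

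Directions that changed belong to small differences. In TAI against control, in the order equal medians, quantile, pan-epithelial and voom, Slc2a5 was at 0.18, 0.20, 0.01 and 0.20, Khk at 0.21, 0.16, 0.05 and 0.22, and Slc37a4 at 0.23, 0.23, 0.06 and 0.24. Leaving out a mouse gave -0.47 to 0.17 for Slc2a5, -0.30 to 0.14 for Khk and -0.18 to 0.04 for Slc37a4. In TAI/IVIg against TAI, Pck1 was at 0.03, 0.06 and 0.01 with equal medians, pan-epithelial scaling and voom and at -0.52 to 0.34 without a mouse, and G6pc at -0.17 to 0.36 without a mouse. The ratio of Slc2a5 to Slc5a1 in TAI against control was -0.83 to -0.44 without a mouse. Fbp1 has the fewest reads, 21 in the lowest control, which limits its precision.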
